A study of Mus musculus with 3 samples.

Results

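The 10 iron handling genes described here are Hmox1, Ncoa4, Fth1, Ftl1, Slc40a1, Cp, Trf, Tfrc, Slc11a2 and Slc11a1. They were chosen by name as genes of iron storage, export, transport, uptake and heme breakdown, and all 10 are among the 29625 genes that the tables of the 3 libraries list. Each library is a single pool of epididymal fat from 8 male C57BL/6J mice, bought at 5 weeks of age, whose nuclear RNA was sequenced on the 10x Genomics platform. The Ctrl mice ate an ordinary diet. The Mid_Ob and Ob mice ate a 60% high-fat diet until they weighed over 10% and over 20% more than the mean of the control mice. Their age at sampling is not given in the sources used here. With 1 library per stage there was no replicate check, no test between stages was possible, and every interval in the text is a 95% interval that covers counting error only.

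Iron that enters a cell is either used, stored or exported. Transferrin carries iron in blood and delivers it through the transferrin receptor, ferritin stores it in the cytosol, and ferroportin is the exporter that returns it to the circulation. Macrophages recycle iron from heme, and in fat a population of resident macrophages is known for a high iron content. Iron regulatory proteins bind a stem-loop called the iron-responsive element in some of these messengers: in the 5′ UTR they block translation, and in the 3′ UTR they protect the messenger from decay.

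A search of all GENCODE M21 transcripts (GRCm38) for a stem-loop of that kind found it in 4 of the 10 genes, Slc40a1, Fth1, Ftl1 and Tfrc. The letters searched, on the transcript strand, were a bulged C, 5 bases, the loop CAGTG with any base but G after it, and 5 bases that pair with the first 5, G with T included. The sites are shown because iron regulatory proteins act through them, and capitals mark the bulged C and the 6 bases of the loop.
Slc40a1 5′ UTR, chr1:45925465-45925493 (-): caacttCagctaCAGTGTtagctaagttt
Fth1 5′ UTR, chr19:9982732-9982760 (+): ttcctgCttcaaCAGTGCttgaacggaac
Ftl1 5′ UTR, chr7:45459779-45459807 (-): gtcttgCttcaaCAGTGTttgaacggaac
Tfrc 3′ UTR, chr16:32631219-32631247 (+): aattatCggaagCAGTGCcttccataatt
Tfrc 3′ UTR, chr16:32631598-32631626 (+): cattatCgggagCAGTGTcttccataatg
Tfrc 3′ UTR, chr16:32631663-32631691 (+): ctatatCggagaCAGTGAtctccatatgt
Tfrc 3′ UTR, chr16:32631710-32631738 (+): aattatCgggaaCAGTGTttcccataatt

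Such a stem-loop lay in the 5′ UTR of 23 of 21181 genes (0.109%) and in the 3′ UTR of 110 of 21824 genes (0.504%), so 4 of 10 genes compares with 133 of 22500 (0.591%) for either end. The 5′ UTR sites of Fth1 and Ftl1 share all 5 bases before the loop. Those bases are ttcaa in both genes, and the 4 Tfrc sites differ from each other in this stretch. The other 6 genes hold no match to these letters and pairings. An element with a further bulge, an unpaired base in the 5 pairs or another loop would be missed by this search. The absence of a match is thus not the absence of an element.

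The values are CPM, the UMIs (molecule counts) of a gene per 1e6 UMIs of a cluster, a class of clusters or a library. They are not divided by gene length, so levels are compared between clusters and stages of a gene and not between genes. The Ctrl, Mid_Ob and Ob libraries held 53980929, 57665213 and 111595518 UMIs in 14, 11 and 21 clusters, with a median of 3946 to 6676 UMIs per nucleus. Clusters were named from marker lists. Macrophage-like clusters were 9 and 11 in Ctrl with 8.85% of UMIs, 4 in Mid_Ob with 6.15%, and 1, 2, 3, 11, 14 and 20 in Ob with 19.6%. Adipocyte-like clusters took 25.2% (cluster 2), 46.9% (cluster 1) and 55.4% (clusters 4, 5 and 7). All 14 macrophage markers and all 16 adipocyte markers of the lists were detected in every library's clusters of that name. Both lists were also detected in full in the clusters of the other name, so detection does not separate the classes. From Ctrl to Ob, the macrophage list summed to 7803, 8061 and 7459 CPM in macrophage-like clusters and 1305, 788 and 1806 in adipocyte-like ones. The adipocyte list summed to 4985, 3778 and 7662 CPM in macrophage-like clusters and 24383, 26811 and 36241 in adipocyte-like ones. These names were rebuilt from the tables, and a difference from the study may come from them.

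The libraries differed in tissue content before any iron gene is considered. Germ cell, testis and epididymal clusters held 47.0% of the Ctrl UMIs, epididymal epithelium held 30.3% of the Mid_Ob UMIs, and no Ob cluster carried such a name. Leaving these clusters out, as done below, keeps unnamed clusters with such RNA. Spermatid markers summed to 3995 CPM in Ctrl cluster 1. Epididymal markers summed to 4119 and 3873 CPM in Mid_Ob clusters 7 and 11, and to 2840 in adipocyte-like cluster 1 of Mid_Ob. From Ctrl to Mid_Ob and Ob, the share of cytosolic ribosomal protein UMIs was 0.284%, 0.394% and 0.768%, and that of mitochondrial UMIs was 0.22%, 0.343% and 0.472%. Clusters Ctrl 1, Mid_Ob 5, Ob 13 and Ob 18 had over 1.5% mitochondrial UMIs and no name. A library level mixes cell types, so fewer cells of a type and less RNA per cell cannot be told apart in it. Barcodes shared between libraries could not be counted from these tables.

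**Figure D1:**
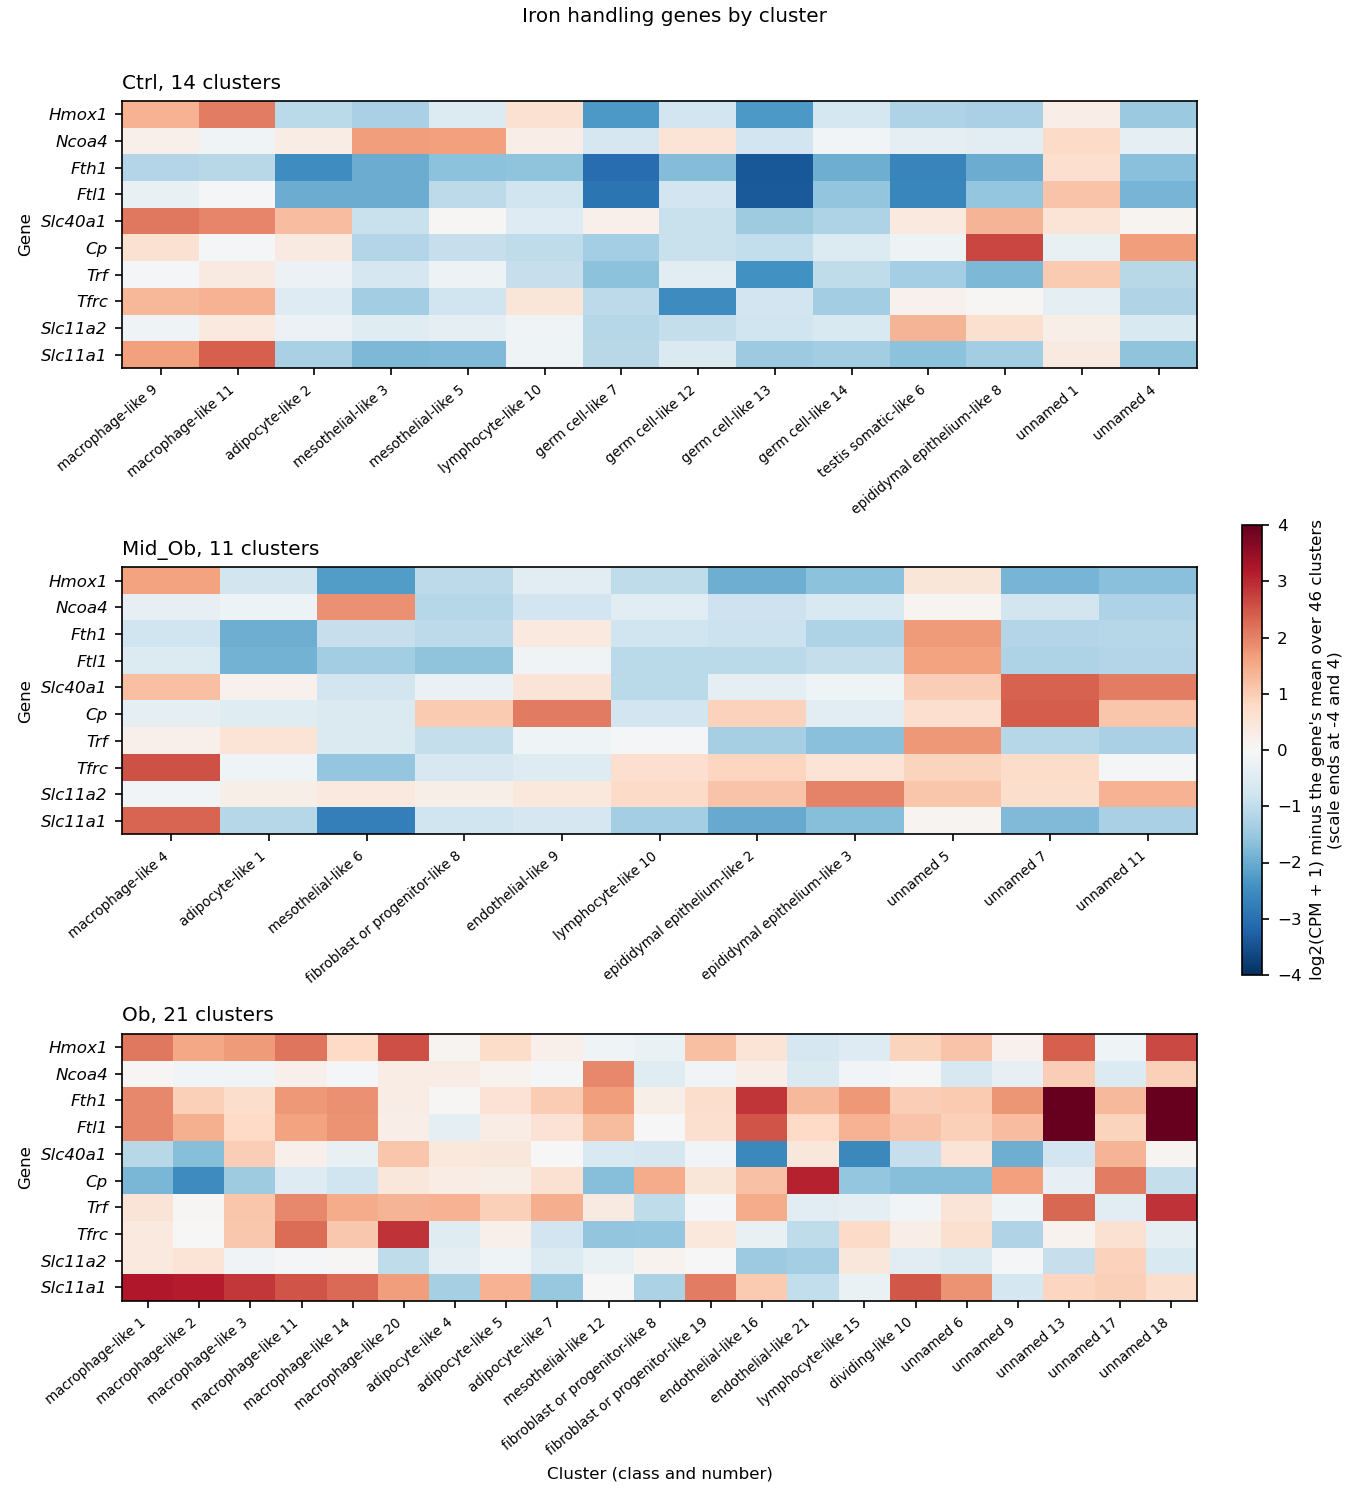
Level of each of the 10 genes (rows) in each of the 46 clusters (columns, by class and number; 1 panel per library), as log2(CPM + 1) minus the mean of the gene over all clusters; red is above and blue below that mean. Fth1 and Ftl1 were highest in the unnamed Ob clusters 18 and 13, Slc11a1 was highest in Ob macrophage-like clusters 1 and 2, and Ncoa4 was highest in the mesothelial-like cluster or clusters of each library.

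Each of the 10 genes passed the minimum of 50 counts at each stage comparison used, and a gene was called higher or lower when its CPM ratio passed 1.5-fold. In whole libraries, Ob over Ctrl, 5 of the 10 genes were called higher, against 18.1% of the 22268 genes that passed the minimum. These 5 were Hmox1, Slc11a1, Fth1, Ftl1 and Trf, and the same comparison called 0 of the 10 lower, against 43.5% of all genes. The median log2 ratio was 1.07 over the 10 genes and -0.35 over all genes. The all-gene shares take in the germ cell, testis and epididymal clusters, which held 47.0% of Ctrl UMIs and had no counterpart named in Ob. Without them these 5 genes stayed called higher, at 2.08, 3.03, 9.6, 5.35 and 2.28 in the order above, and Slc40a1 was lower at 0.506. Scaled to ribosomal protein UMIs in place of all UMIs, Slc11a1, Fth1 and Ftl1 stayed higher. Slc40a1, Slc11a2, Tfrc, Cp and Ncoa4 were then called lower. Ribosomal protein genes took 0.284% of Ctrl and 0.768% of Ob UMIs, so this scaling lowers every gene's Ob over Ctrl ratio by the same factor. The share of all genes called on this scale is not given in this text. A call of lower on it thus does not set a gene apart from others. For Ob over Mid_Ob by CPM, Hmox1, Slc11a1, Fth1, Ftl1 and Trf were higher (17.5% of all genes). Slc11a2 was lower (27.3% of all genes), and the medians were 0.69 and -0.09. For Mid_Ob over Ctrl, Slc11a2, Fth1, Tfrc and Trf were called higher (17.3% of all genes) and 0 were called lower (35.5% of all genes), with medians of 0.15 and -0.16. All 4 of these calls were lost when testis and epididymis clusters were left out, where the ratios were 1.47 for Slc11a2, 1.30 for Fth1, 1.41 for Tfrc and 1.47 for Trf.

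**Figure D2:**
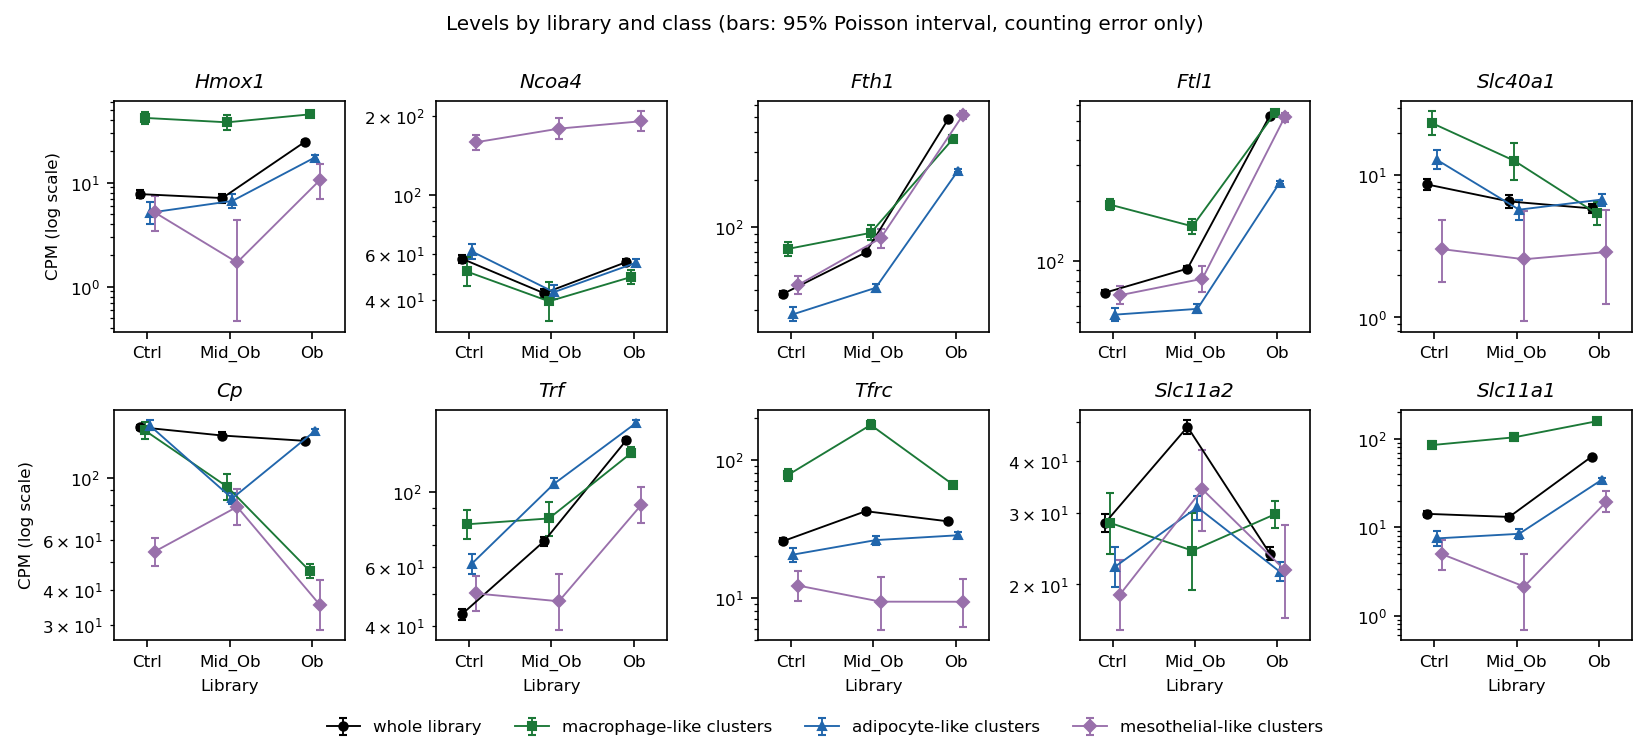
CPM of each gene (log scale, a panel per gene) in the Ctrl, Mid_Ob and Ob libraries, for the whole library and for its macrophage-like clusters, adipocyte-like clusters and mesothelial-like ones; bars are 95% Poisson intervals for counting error. Fth1 and Ftl1 were highest in Ob at all 4 levels, while Slc40a1 in macrophage-like clusters went from 23.4 to 12.7 and 5.40 CPM.

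**Figure D3:**
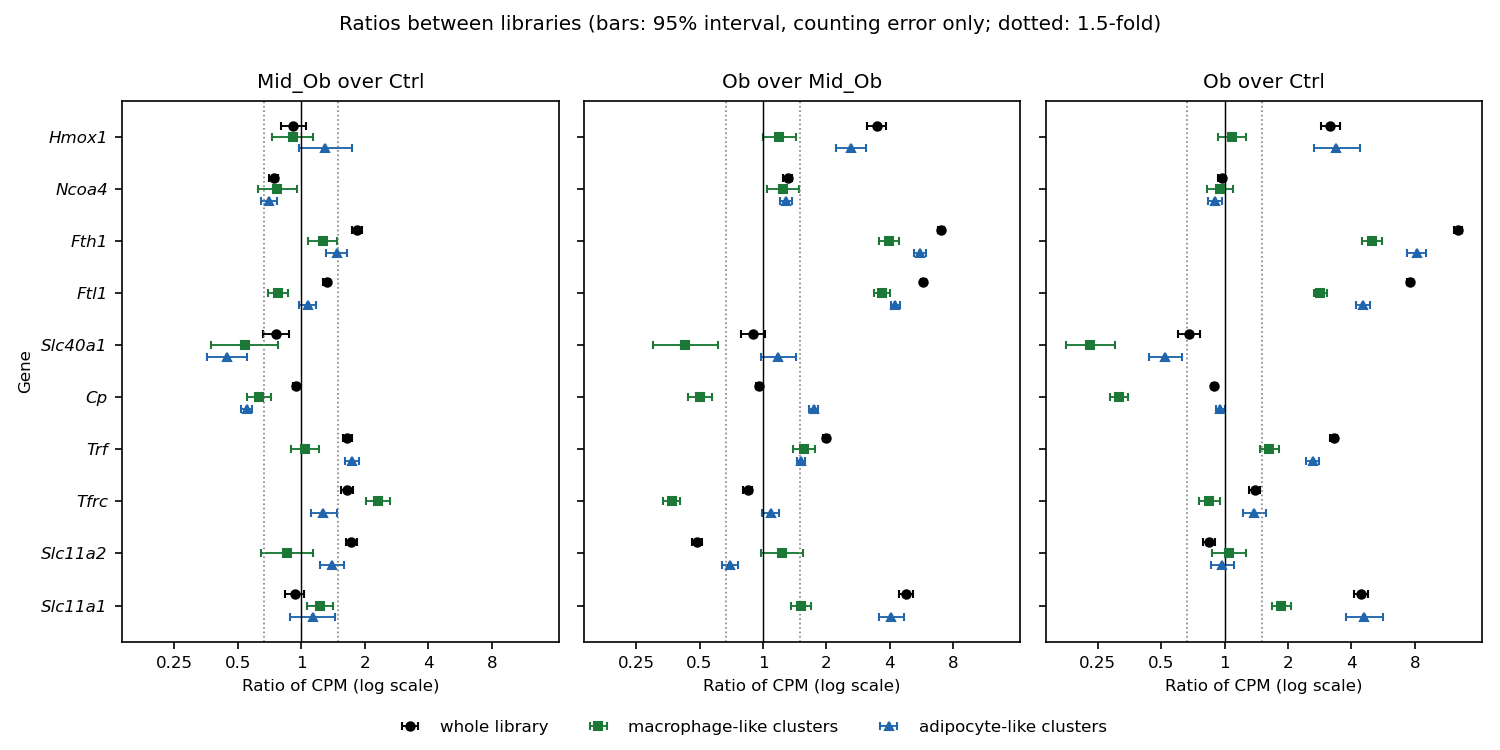
Ratio of CPM between libraries (log scale) for each gene in the 3 stage comparisons, for whole libraries, macrophage-like and adipocyte-like clusters, with 95% intervals for counting error; dotted lines mark 1.5-fold. Hmox1, Ob over Ctrl, was at 3.17 in whole libraries and 3.38 in adipocyte-like clusters but 1.08 in macrophage-like clusters, and Cp, Ob over Mid_Ob, lay below 1 in macrophage-like and above 1 in adipocyte-like clusters.

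Within macrophage-like clusters, Ob over Ctrl, Slc11a1, Fth1, Ftl1 and Trf were called higher (4 genes, against 13.7% of 14249 genes) and Slc40a1 and Cp were called lower (2 genes, against 24.1%). The median log2 ratio was 0.09 for the 10 genes and -0.08 for all genes. Ob over Mid_Ob gave the same 4 genes higher (13.1% of all genes) and Slc40a1, Tfrc and Cp lower (3 genes, against 18.4%). Mid_Ob over Ctrl gave Tfrc alone among the 10 higher (8.71%) and Slc40a1 and Cp lower (14.8%). Within adipocyte-like clusters, Hmox1, Slc11a1, Fth1, Ftl1 and Trf were higher in Ob over Ctrl (5 genes, against 18.8% of 17826 genes) and Slc40a1 was lower (27.6%). Ob over Mid_Ob had 6 of the 10 genes higher, these 5 and Cp (15.3% of 17738 genes), and 0 lower (19%). Mid_Ob over Ctrl had Trf higher (15.3% of 17042 genes) and Slc40a1 and Cp lower (20.2%).

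Fth1 and Ftl1 encode the heavy and the light chain of ferritin, the shell that stores iron in the cytosol. The heavy chain oxidises the incoming iron, and the light chain favours its deposition. Fth1 (chr19:9980598-9985098, + strand, GRCm38) stood at 37.8 CPM in Ctrl and 69.1 in Mid_Ob, against 486 in Ob. The Ob over Ctrl ratio was 12.8 (12.3 to 13.4). Ftl1 (chr7:45457944-45459884, - strand) stood at 69.7, 91.8 and 530 CPM, an Ob over Ctrl ratio of 7.60 (7.35 to 7.85). The step between Mid_Ob and Ob was 7.02-fold for Fth1 and 5.77-fold for Ftl1, and the step between Ctrl and Mid_Ob was 1.83-fold and 1.32-fold. Without testis and epididymis clusters the Mid_Ob over Ctrl ratio was 1.3 for Fth1 and turned to 0.853 (0.812 to 0.897) for Ftl1. The Ob over Ctrl ratios were then 9.6 and 5.35.

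The higher level in Ob was found in adipocyte-like, macrophage-like and mesothelial-like clusters. In adipocyte-like clusters Fth1 was at 28.0, 41.2 and 229 CPM, with an Ob over Ctrl ratio of 8.16 (7.37 to 9.05). Ftl1 there was at 54.2, 57.9 and 246 CPM, a ratio of 4.54 (4.22 to 4.90). For Fth1 in macrophage-like clusters the levels were 72.9, 92.1 and 365 CPM, a ratio of 5.01 (4.50 to 5.59). Ftl1 in the same clusters was at 191, 149 and 545 CPM, a ratio of 2.85 (2.66 to 3.05). All 6 Ob macrophage-like clusters lay above the Ctrl and Mid_Ob ones for both chains, at 198 to 614 CPM for Fth1 and 260 to 819 for Ftl1. The share of all genes with such an order within this class is not given. In mesothelial-like clusters, the cells that line the fat pad, Fth1 was at 43.0, 85.1 and 517 CPM, a ratio of 12 (10.5 to 13.8).

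The highest ferritin levels of each library were in its unnamed cluster or clusters of high mitochondrial share. Fth1 was at 259 CPM in Ctrl 1, 523 in Mid_Ob 5, 5605 in Ob 13 and 9070 in Ob 18. Ftl1 was at 476, 666, 5342 and 8385 CPM in the same clusters. All 5 unnamed Ob clusters (6, 9, 13, 17 and 18) together held 8.97% of that library's UMIs but 48.4% of its Fth1 and 42.1% of its Ftl1 counts. Clusters 13 and 18 by themselves held 1.07% and 1.64% of the UMIs. Without the clusters of high mitochondrial share, the Ob over Ctrl ratio was 8.61 (8.21 to 9.04) for Fth1 and 5.66 (5.46 to 5.87) for Ftl1.

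Across clusters, ferritin followed the share of UMIs from ribosomal protein genes, whose messengers are abundant in the cytoplasm. The Pearson r of Fth1 CPM with that share was 0.74 over 14 Ctrl clusters, 0.96 over 11 Mid_Ob clusters and 0.99 over 21 Ob clusters, and that of Ftl1 was 0.76, 0.93 and 0.97. Clusters of a library share its depth and its free RNA, so these values are a description. Among the other 8 genes r ranged no higher than the 0.61 of Trf in Ctrl. The hemoglobin genes, which mark red blood cells, took 0.00461%, 0.0032% and 0.0542% of UMIs in the 3 libraries, so they were highest in Ob as ferritin was but lower in Mid_Ob than in Ctrl. Their level was 8234 and 7319 CPM in Ob clusters 13 and 18 and 10015 CPM in the endothelial-like Ob cluster 16, where Fth1 was at 1166 CPM. The part of cytoplasmic or red cell RNA in the ferritin result was not tested.

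Counted per 1000 ribosomal protein UMIs, Fth1 stood at 13.3 in Ctrl and 17.6 in Mid_Ob, against 63.2 in Ob. The clusters ranged from 4.03 to 24.9 in Ctrl, from 13.3 to 23.8 in Mid_Ob and from 40.6 to 82.6 in Ob, so the Ob clusters did not overlap the others. On this scale, chosen after the data were seen, 4 of 23144 genes (0.0173%) had every Ob cluster above every other cluster, Fth1 among them. On the CPM scale 0 of 23144 genes (0.00%) did, and the lowest Ob cluster for Fth1, adipocyte-like cluster 4 at 165 CPM, lay above 13 of 14 Ctrl and 9 of 11 Mid_Ob clusters. Ftl1 per 1000 ribosomal protein UMIs was 24.5, 23.3 and 68.9 in the 3 libraries, and its clusters overlapped, with 10.6 to 69.5 in Ctrl, 14.8 to 35.1 in Mid_Ob and 43.0 to 106 in Ob. The Ob over Ctrl ratio on this scale was 4.74 for Fth1 and 2.81 for Ftl1 in whole libraries, 4.28 and 2.38 in adipocyte-like clusters, and 2.59 and 1.47 in macrophage-like clusters, where Ftl1 was no longer called.

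**Figure D4:**
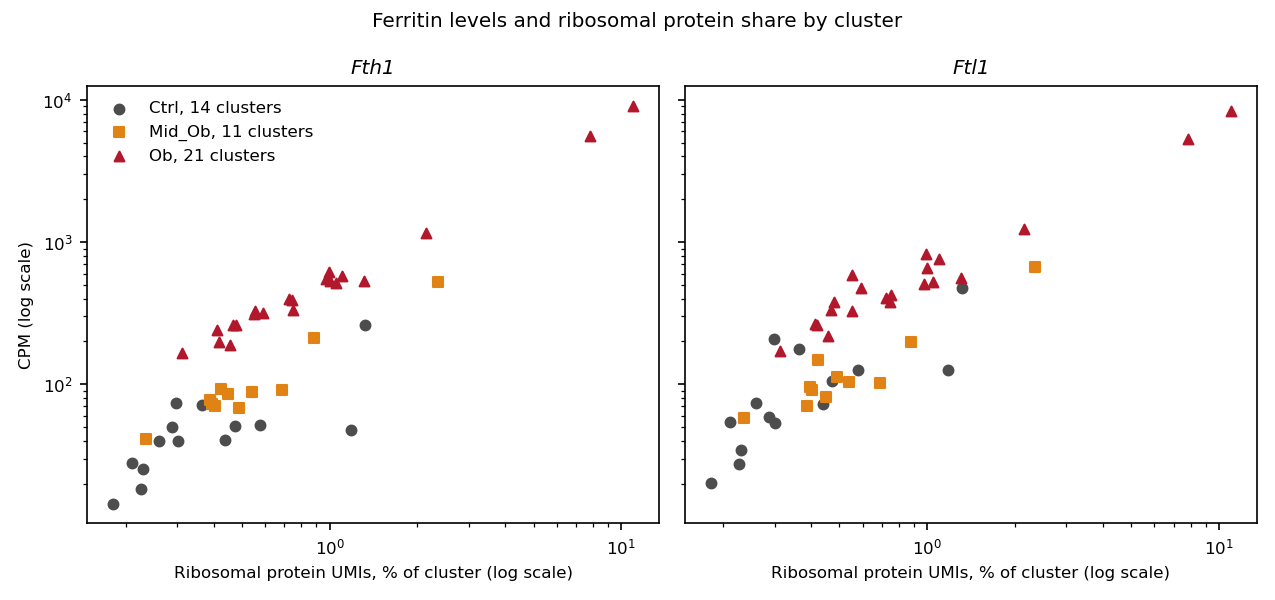
CPM of Fth1 and Ftl1 in each of the 46 clusters (points, by library) against the percentage of UMIs from cytosolic ribosomal protein genes, both axes on a log scale. At a given ribosomal protein share the Fth1 points of Ob lie above those of Ctrl and Mid_Ob, and the highest points at the right are Ob clusters 13 and 18 with 5605 and 9070 CPM.

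The ratio of Fth1 to Ftl1 UMIs was 0.543 in Ctrl, 0.754 in Mid_Ob and 0.917 in Ob. Over clusters it ranged from 0.359 to 0.854 in Ctrl, from 0.605 to 1.11 in Mid_Ob and from 0.538 to 1.08 in Ob. The lowest values of Ctrl and Ob were both in macrophage-like clusters, Ctrl 11 and Ob 2, so the light chain had its largest share of ferritin counts there. Other ferritin entries are listed too, and reads of closely similar copies could be split in counting. Ftl1-ps1 had 135, 70 and 309 counts in the 3 libraries, Ctrl first, beside 3764, 5291 and 59113 for Ftl1. Fthl17a had 453, 4 and 2 counts and the mitochondrial ferritin Ftmt 342, 0 and 0, beside 2043, 3987 and 54188 for Fth1. The counts of Fthl17a and Ftmt thus lay almost wholly in Ctrl, the only library with germ cell-like clusters. Their similarity in sequence to Fth1 was not examined.

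The 250 bases before the annotated starts of both ferritin genes are shown because the chains moved together over clusters, with r = 0.98 over 46 clusters. After each other, the nearest genes were Cstb (0.97) and Fabp5 (0.96) for Fth1, and Cstb (0.97) and Sh3bgrl3 (0.96) for Ftl1. The sequences are those of RefSeq (GRCm38.p6), for the Fth1 start that lies just before its stem-loop and for the only listed Ftl1 start. Capitals mark GC boxes (GGGCGG) and CCAAT boxes (CCAAT) on either strand.
Fth1, chr19:9982396-9982645 (+): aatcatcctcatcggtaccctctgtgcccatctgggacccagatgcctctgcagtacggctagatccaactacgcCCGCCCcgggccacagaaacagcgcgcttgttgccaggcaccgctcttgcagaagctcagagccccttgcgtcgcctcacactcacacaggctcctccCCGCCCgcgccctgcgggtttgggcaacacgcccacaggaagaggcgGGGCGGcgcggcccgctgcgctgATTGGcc
Ftl1, chr7:45459887-45460136 (-): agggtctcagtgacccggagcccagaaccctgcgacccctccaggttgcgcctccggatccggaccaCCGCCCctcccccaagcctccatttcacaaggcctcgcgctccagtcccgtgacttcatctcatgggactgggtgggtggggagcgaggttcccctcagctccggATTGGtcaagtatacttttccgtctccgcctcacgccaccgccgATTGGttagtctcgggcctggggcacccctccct

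Fth1 held GC boxes at -175, -77 and -30 from its start and a CCAAT box at -7, and Ftl1 held a GC box at -183 and CCAAT boxes at -78 and -34. Of the 32851 windows of 300 bases in the table, 35.7% held a GC box and 37.4% a CCAAT box. The table matched 6 of the 10 genes, Slc11a1, Fth1, Ftl1, Tfrc, Cp and Ncoa4. The core of the antioxidant response element (TGACNNNGC), to which NRF2 binds in genes of heme and iron metabolism, occurred in 12.4% of windows. Among those of the 6 genes it occurred in 1, at -44 of an Ncoa4 start, chr14:32165735-32165763 (+): aggcggggcgTGACCTGGCcggtagggta. A match of letters is a description of the window and not a shown site.

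Ncoa4 (chr14:32159865-32179855, + strand) encodes the receptor that carries ferritin to the lysosome so that its iron is released. Its level in whole libraries was 57.4, 42.4 and 55.7 CPM in Ctrl, Mid_Ob and Ob, with an Ob over Ctrl ratio of 0.970 (0.929 to 1.01), and it was called in no stage comparison at the 3 levels compared. Scaled to ribosomal protein UMIs the Ob over Ctrl ratio was 0.359 in whole libraries, 0.492 in macrophage-like and 0.475 in adipocyte-like clusters, all called lower, and without testis and epididymis clusters the library ratio for Mid_Ob over Ctrl was 0.617, also lower. Its highest level was in mesothelial-like clusters of every library, at 160 and 157 CPM in Ctrl clusters 3 and 5, 179 in Mid_Ob cluster 6 and 191 in Ob cluster 12. The next cluster stood at 53.4 CPM in Mid_Ob and 99.3 in Ob. The genes with the most similar pattern over 46 clusters, out of 19419, were Gm20186 and the mesothelial marker Msln, each with r = 0.80, then Gjb5 with 0.79. So Ncoa4 was near its library mean in the macrophage-like clusters, at 51.3, 39.5 and 48.9 CPM, where ferritin differed between stages.

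Hmox1 (chr8:75093621-75100589, + strand) encodes heme oxygenase 1, the inducible enzyme that opens heme and frees its iron. Whole libraries gave 7.76 CPM in Ctrl and 7.11 in Mid_Ob, against 24.6 in Ob, and the Ob over Ctrl ratio was 3.17 (2.86 to 3.52). It was 2.08 (1.86 to 2.34) without testis and epididymis clusters and 1.17, with no call, when scaled to ribosomal protein UMIs. In macrophage-like clusters the level was 41.9, 38.0 and 45.3 CPM, a ratio of 1.08 (0.929 to 1.27), so the class with the most Hmox1 of those compared did not pass 1.5-fold. These clusters held 47.7% of all Hmox1 counts in Ctrl, 32.9% in Mid_Ob and 36.1% in Ob, while their own share of UMIs was larger in Ob. Adipocyte-like clusters went from 5.14 and 6.66 to 17.4 CPM, an Ob over Ctrl ratio of 3.38 (2.66 to 4.37), or 1.77 by the ribosomal scaling. The 3 Ob adipocyte-like clusters, at 12.9, 20.3 and 13.9 CPM in clusters 4, 5 and 7, all lay above the Ctrl and Mid_Ob ones. For how many of all genes this holds is not given. Per 1000 ribosomal protein UMIs they were at 4.12, 4.94 and 2.51, against 2.45 in Ctrl and 2.83 in Mid_Ob. Cluster 7 thus did not lie above Mid_Ob on that scale. The macrophage markers summed to 2674 CPM in cluster 5 and to 562 and 570 in clusters 4 and 7. The part of macrophage RNA in this result was not tested.

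Among macrophage-like clusters Hmox1 ranged from 21.3 CPM in Ob 14 to 75.5 in Ob 20, with Ctrl clusters 11 and 9 at 51.9 and 32.8 and Mid_Ob 4 at 38.0. Of the neighbours in the order of the 21 Ob clusters, 19 of 20 pairs had intervals that overlapped. Genes with a closely similar pattern were Ccl9 and Ccl6, each with r = 0.92, and of the 10 genes Slc11a1 was nearest with 0.86. By the scaling to ribosomal protein UMIs, the macrophage-like Ob over Ctrl ratio of Hmox1 was 0.559, a call of lower by 1.79-fold. This scaling was chosen after the data were seen. It lowers the ratio of every gene in these clusters by the same factor, as their ribosomal protein share was 0.333% in Ctrl and 0.644% in Ob. The share of all genes called lower by it is not given, so the call does not set Hmox1 apart.

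Slc40a1 (chr1:45908068-45926523, - strand) encodes ferroportin, the iron exporter of the cell membrane and the target of hepcidin. Its counts were low, at 467, 378 and 654 in Ctrl, Mid_Ob and Ob. The library levels of 8.65, 6.56 and 5.86 CPM gave an Ob over Ctrl ratio of 0.677 (0.601 to 0.764), which was not called. Scaled to ribosomal protein UMIs it was 0.25, and 0.458 for Ob over Mid_Ob, both called lower. Without testis and epididymis clusters it was 1.97-fold lower in Ob (1.73 to 2.26), from 11.6 to 5.86 CPM. In macrophage-like clusters Slc40a1 stood at 23.4 CPM in Ctrl, 12.7 in Mid_Ob and 5.40 in Ob. It was thus 1.85-fold lower in Mid_Ob than in Ctrl (1.30 to 2.67), 2.35-fold lower in Ob than in Mid_Ob (1.63 to 3.34), and 4.34-fold lower in Ob than in Ctrl (3.32 to 5.67). These 3 calls were kept under every alternative run, and the ribosomal scaling made them 2.35-fold, 3.57-fold and 8.41-fold.

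Among the 9 macrophage-like clusters the Slc40a1 levels of Ctrl and Ob did not overlap, though the intervals of Ctrl 11 (16.3 to 29) and Ob 20 (7.15 to 18.1) did. The share of all genes whose macrophage-like clusters part in this way is not given, so this does not set Slc40a1 apart. Ctrl clusters 9 and 11 stood at 24.8 and 22 CPM, Mid_Ob 4 at 12.7, and Ob clusters 20 and 3 at 11.7 and 10.7. The remaining Ob clusters were lower, with 5.88 CPM in cluster 11, 3.87 in 14, 1.73 (0.697 to 3.57) in 1 and 0.841 (0.309 to 1.83) in 2. Clusters 1 and 2 are the Ob macrophage-like clusters with the most Gpnmb, a marker of lipid-laden macrophages, at 1337 and 3190 CPM, and the least Cd163, the scavenger receptor of haptoglobin and hemoglobin, at 21 and 9.53 CPM. In Ctrl the Gpnmb-rich cluster 11, at 1461 CPM, had Slc40a1 at 22 and Cd163 at 549 CPM.

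**Figure D5:**
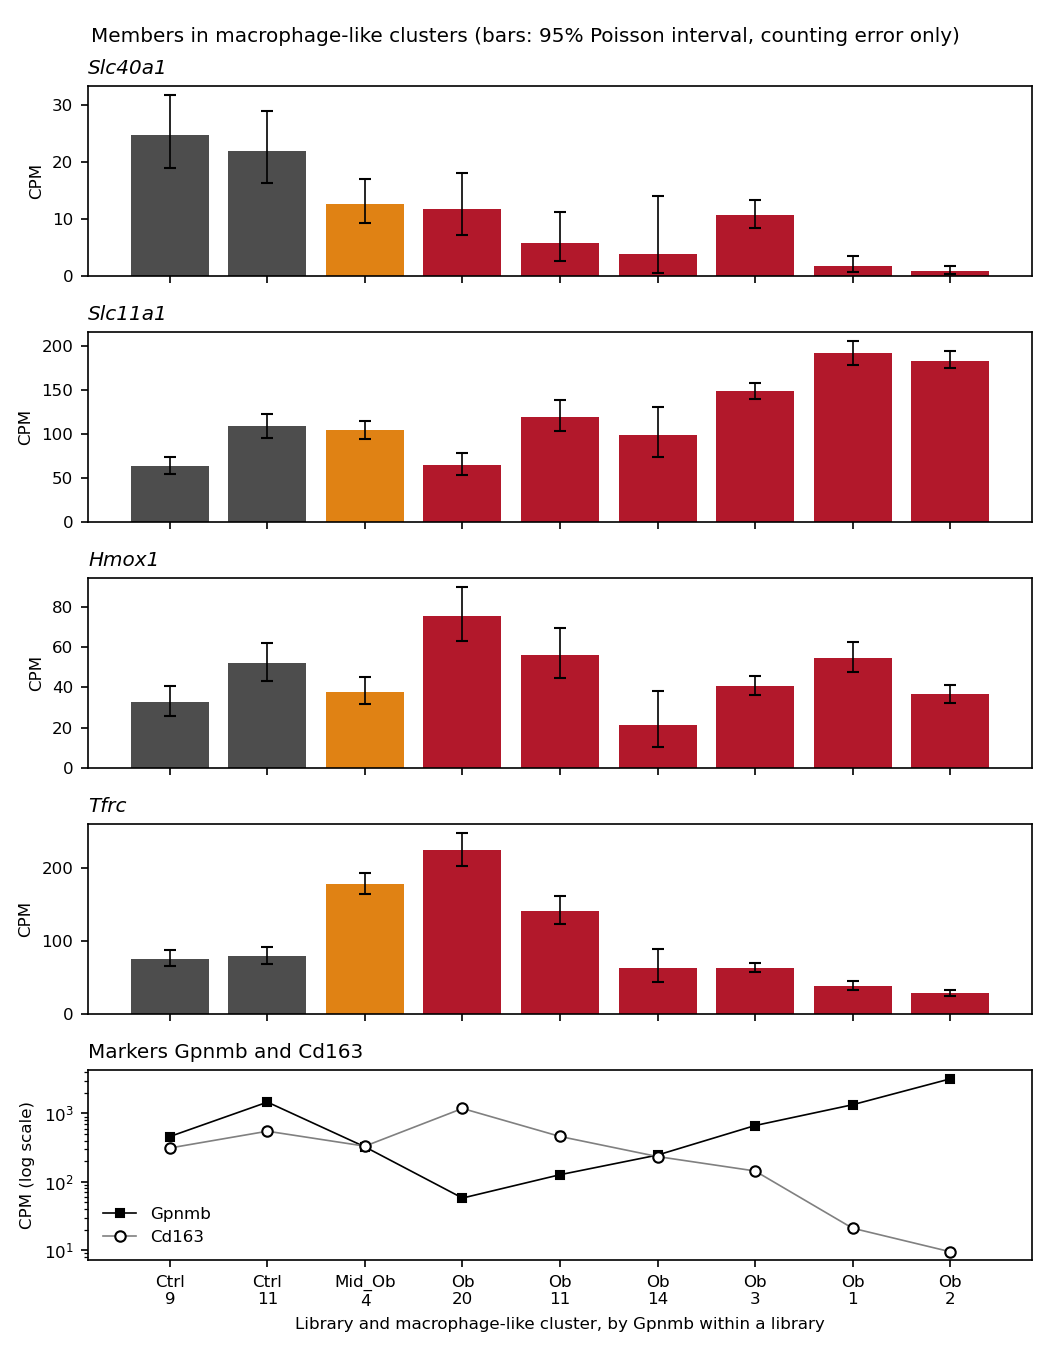
CPM of Slc40a1, Slc11a1, Hmox1 and Tfrc in the 9 macrophage-like clusters (bars with 95% Poisson intervals for counting error; grey Ctrl, orange Mid_Ob, red Ob), ordered by Gpnmb within a library, above the Gpnmb and Cd163 levels on a log scale. In Ob, the Gpnmb-rich clusters 1 and 2 had the lowest Slc40a1 and Tfrc and the highest Slc11a1 by CPM.

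Adipocyte-like clusters had Slc40a1 at 12.9 CPM in Ctrl, 5.74 in Mid_Ob and 6.76 in Ob. It was 2.25-fold lower in Mid_Ob (1.80 to 2.81) and 1.91-fold lower in Ob (1.59 to 2.28) than in Ctrl, so here the lower level was already present in Mid_Ob. These clusters held 37.7%, 41.0% and 63.9% of all Slc40a1 counts. The unnamed clusters Mid_Ob 7 and 11 had 29.3 and 23.4 CPM, the highest of that library. In Ob clusters 15 (lymphocyte-like) and 16 (endothelial-like) no Slc40a1 count was found, which by the limit of 3 counts allows up to 4.02 and 8.97 CPM. The most similar patterns over clusters were those of Gprc5c, Gm10790 and Nrap, with r of 0.69, 0.68 and 0.66.

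Cp (chr3:19957054-20009145, + strand) encodes ceruloplasmin, the copper oxidase that oxidises exported iron so that transferrin can bind it. Whole libraries were close, at 151, 141 and 135 CPM, with an Ob over Ctrl ratio of 0.895 (0.871 to 0.92). Under the ribosomal protein scaling that ratio was 0.331, and for Ob over Mid_Ob it was 0.489, both called lower. The classes differed by CPM and went in opposite directions between Mid_Ob and Ob. Macrophage-like clusters had 147 CPM in Ctrl, 92.7 in Mid_Ob and 46.6 in Ob. Cp was there 3.16-fold lower in Ob than in Ctrl (2.87 to 3.48) and 1.99-fold lower in Ob than in Mid_Ob (1.75 to 2.26). Adipocyte-like clusters had 153, 84.3 and 146 CPM, so the level was 1.82-fold lower in Mid_Ob than in Ctrl (1.71 to 1.93) and 1.74-fold higher in Ob than in Mid_Ob (1.66 to 1.82). Scaled to ribosomal protein UMIs the latter ratio was 1.02, and with equal weight for every cluster the macrophage-like Ob over Mid_Ob log2 ratio was -0.44, so each call was lost under 1 setting.

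Among the Ob macrophage-like clusters Cp was lowest in Gpnmb-rich clusters 2 and 1, at 19.9 and 32.9 CPM, and highest in cluster 20 at 163 CPM. The Ctrl clusters 9 and 11 had 180 and 111 CPM, and leaving out Ctrl 9 ended the call of lower for Mid_Ob over Ctrl, with a log2 ratio of -0.26. The highest levels of all were outside these classes. Cp reached 761 CPM in the epididymal epithelium-like cluster 8 of Ctrl, 643 and 506 in the unnamed cluster 7 and the endothelial-like cluster 9 of Mid_Ob, and 1010 and 493 in the endothelial-like cluster 21 and the unnamed cluster 17 of Ob. Fam171a1, Btbd3 and Arhgef28 had the most similar patterns, with r of 0.82, 0.81 and 0.79.

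Trf (chr9:103204001-103230444, - strand) encodes transferrin, the iron carrier of plasma. Its library levels were 43.4 CPM in Ctrl, 71.6 in Mid_Ob and 143 in Ob, an Ob over Ctrl ratio of 3.29 (3.15 to 3.43). Without testis and epididymis clusters the ratio was 2.28 (2.17 to 2.4). Adipocyte-like clusters held 35.6%, 69.7% and 62.4% of Trf counts and stood at 61.3, 106 and 161 CPM. There the step was 1.74-fold from Ctrl to Mid_Ob (1.61 to 1.88) and 1.51-fold from Mid_Ob to Ob (1.45 to 1.58). The Ob adipocyte-like clusters 4, 5 and 7 had 188, 139 and 199 CPM, all above the adipocyte-like clusters of the other libraries. No share of all genes with that order is given. Leaving out cluster 4 or cluster 7 put the second step at 1.41-fold or 1.46-fold, under the threshold. With scaling to ribosomal protein UMIs, the library ratio was 1.21 for Ob over Ctrl and 1.02 for Ob over Mid_Ob, with no call.

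In macrophage-like clusters Trf was at 80.4, 83.7 and 131 CPM, 1.63-fold higher in Ob than in Ctrl (1.47 to 1.82) and 1.57-fold higher than in Mid_Ob. The log2 ratio for Ob over Ctrl fell from 0.71 to 0.58 without Ob cluster 3 or 11 and to 0.52 without Ctrl cluster 9, each of which ended the call, and that for Ob over Mid_Ob to 0.52 or 0.53 without Ob cluster 3 or 11, again with no call. Ob cluster 11 was highest at 276 CPM and cluster 2 lowest at 73.9, inside the Ctrl range of 69.9 to 91.9. The 16 adipocyte markers summed to 4985, 3778 and 7662 CPM in these clusters, and over the 6 Ob clusters they ranged from 3096 to 10544. The part of adipocyte RNA in this result was not tested. As with ferritin, the highest levels were in the clusters of high mitochondrial share, at 148 CPM in Ctrl 1, 243 in Mid_Ob 5, 354 in Ob 13 and 534 in Ob 18. The genes most like Trf were Reep5 with r = 0.90, the adipocyte factor Cebpa with 0.89 and Aplp2 with 0.86. Scaled to ribosomal protein UMIs, the direction turned in macrophage-like clusters for Ob over Ctrl and in adipocyte-like clusters for Ob over Mid_Ob, with log2 ratios of -0.25 and -0.17.

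Tfrc (chr16:32608920-32632794, + strand) encodes the transferrin receptor and carries the 4 stem-loops shown above in its 3′ UTR. Its library levels were 25.8, 42.4 and 35.8 CPM, and the Mid_Ob over Ctrl ratio of 1.64 (1.54 to 1.76) was lost without testis and epididymis clusters. The highest Tfrc of each library was in a macrophage-like cluster. The class stood at 77.7 CPM in Ctrl, 178 in Mid_Ob and 65.9 in Ob. This was 2.30-fold higher in Mid_Ob than in Ctrl (2.02 to 2.62) and 2.71-fold lower in Ob than in Mid_Ob (2.46 to 2.97), and both calls were kept under every alternative run.

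The Ob macrophage-like clusters spread widely around that value. Cluster 20 had 225 CPM (203 to 248) and cluster 11 had 142, clusters 14 and 3 had 63.8 and 63.4, and clusters 1 and 2 had 39.1 and 29.3. The clusters with most Cd163, 20 and 11 at 1180 and 460 CPM, were therefore those with most Tfrc, and the Gpnmb-rich ones had the least. The Ctrl clusters 9 and 11 did not separate, at 75.9 and 79.6 CPM. Adipocyte-like clusters had 20.6, 26.2 and 28.4 CPM, with no call. On the ribosomal protein scale, Tfrc was called lower in whole libraries for Ob over Ctrl (0.514, against 1.39 by CPM), in macrophage-like clusters for Ob over Ctrl (0.438, against 0.848) and in adipocyte-like clusters for Ob over Mid_Ob (0.638, against 1.09). Ap1b1, Fcgr2b and Rnpep had the patterns most like Tfrc, with r of 0.84, 0.83 and 0.82.

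Slc11a2 (chr15:100387898-100425072, - strand) encodes DMT1, the transporter that moves iron out of the endosome after transferrin is taken up. Its library levels were 28.3, 48.6 and 23.8 CPM in Ctrl, Mid_Ob and Ob. The Mid_Ob level was 1.72-fold above Ctrl (1.62 to 1.83), and Ob was 2.05-fold lower than Mid_Ob (1.94 to 2.16). The highest Mid_Ob levels were 105 CPM in epididymal cluster 3, 70.1 in unnamed cluster 11 and 59.2 in epididymal cluster 2. Without testis and epididymis clusters the levels were 22.4, 32.9 and 23.8 CPM and no comparison passed 1.5-fold. Unnamed cluster 11 of Mid_Ob was not among those left out. Macrophage-like clusters had 28.3, 24.2 and 29.7 CPM and adipocyte-like clusters 22.1, 30.9 and 21.5, with no call in either. Scaled to ribosomal protein UMIs, Slc11a2 was called lower for Ob over Ctrl in whole libraries (0.311), macrophage-like clusters (0.542) and adipocyte-like clusters (0.511). In Ctrl the testis somatic-like cluster 6 was highest, at 68.8 CPM. Abca2, Enpp1 and Ss18l1 had the most similar patterns, with r of 0.79, 0.78 and 0.76.

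Slc11a1 (chr1:74375195-74386062, + strand) encodes NRAMP1, the divalent metal transporter of the phagosome membrane in macrophages. Library levels of 14.2, 13.1 and 62.9 CPM gave a ratio of 4.44 (4.12 to 4.79) for Ob over Ctrl and of 4.78 (4.44 to 5.16) for Ob over Mid_Ob, and of 1.64 and 2.45 when scaled to ribosomal protein UMIs, both still called. Macrophage-like clusters held 53.1%, 48.8% and 49.1% of its counts and stood at 85.0, 104 and 158 CPM. The Ob over Ctrl ratio there was 1.86 (1.67 to 2.06), smaller than in the whole library, and leaving out Ctrl cluster 9 put it at 1.45. The ratio for Ob over Mid_Ob was 1.51, and 1.44 or 1.39 without Ob cluster 1 or 2. Ob clusters 1 and 2 had 191 and 183 CPM, cluster 3 had 148, clusters 11 and 14 had 119 and 98.6, and cluster 20 had 64.9. Ctrl clusters 9 and 11 had 63.5 and 109, so clusters 20 and 14 lay within the Ctrl range and clusters 1, 2, 3 and 11 above it.

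When scaled to ribosomal protein UMIs, the macrophage-like log2 ratio of Slc11a1 was -0.06 for Ob over Ctrl and -0.01 for Ob over Mid_Ob. The ribosomal protein share of these clusters was 0.333%, 0.423% and 0.644% from Ctrl to Ob. Per 1000 ribosomal protein UMIs, Slc11a1 was at 19.3, 33.3 and 30.8 in Ob clusters 1, 2 and 3, and at 36.5 in Ctrl cluster 11. The place of Ob cluster 1 above cluster 3 thus held by CPM only. The adipocyte-like level was 7.49, 8.44 and 34.3 CPM, but only cluster 5 of the 3 Ob clusters was high, with 53.4 CPM against 7.22 in cluster 4 and 6.34 in cluster 7. Without cluster 5 the log2 ratio was -0.11 for Ob over Ctrl and -0.28 for Ob over Mid_Ob. Cluster 5 also carried the most macrophage RNA, where the 14 macrophage markers summed to 2674 CPM, while clusters 4 and 7 had 562 and 570. Clec12a, Lilr4b and Cd300lb, each with r = 0.97, were the genes most like Slc11a1 over clusters.

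A list of 72 other genes of iron and heme metabolism was read in whole libraries in the same way. For Ob over Ctrl 67 passed the count minimum, of which 19 were higher and 17 lower, against 18.1% and 43.5% of all genes, with a median log2 ratio of -0.01 beside -0.35 for all genes. For Ob over Mid_Ob 18 of 67 were higher and 19 lower (17.5% and 27.3% of all genes), and for Mid_Ob over Ctrl 12 of 68 were higher and 11 lower (17.3% and 35.5%). Without testis and epididymis clusters the Ob over Ctrl counts were 12 higher and 16 lower. The library ratios of single genes below include these clusters and are by CPM. No ratios scaled to ribosomal protein UMIs are given for them. The groups and examples that follow are for Ob over Ctrl, and no group was compared with another.

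Of 12 genes of heme capture, transport and breakdown, 6 were higher and 2 lower, against 18.1% and 43.5% of all genes. Hp, haptoglobin, which binds free hemoglobin, stood at 44.4, 56.2 and 214 CPM, a ratio of 4.82 (4.62 to 5.03). Its highest Ob level was 2072 CPM, in the unnamed cluster 18 of high mitochondrial share. Blvra, biliverdin reductase, the step after Hmox1, was at 38.2, 28.6 and 70.9 CPM, a ratio of 1.86 (1.77 to 1.95). Lrp1, the receptor of the heme and hemopexin complex, was 1.67-fold higher, and Cd163 had 56.2, 35.3 and 71.9 CPM with no call. Within macrophage-like clusters Cd163 went from 425 and 332 to 183 CPM. Of 7 genes of transcription control 3 were higher and 0 lower, namely Nfe2l2 (NRF2) with 1.55, Bach1, the repressor of Hmox1, with 1.72, and Nr1h3 with 1.87.

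Of 14 genes of iron uptake and reduction 12 passed the minimum, with 3 higher and 6 lower, against the 18.1% and 43.5% of all genes. Steap4, a metalloreductase known in fat, stood at 13.3, 53.4 and 162 CPM, a ratio of 12.2 (11.3 to 13.2), with 23.4, 94.5 and 248 CPM in adipocyte-like clusters. Steap3, which reduces endosomal iron, was 1.62-fold higher. Scara5, a receptor for light-chain ferritin, was at 192, 40.8 and 46 CPM, 4.19-fold lower in Ob (4.05 to 4.33). Slc39a8, a zinc and iron importer, was at 165, 66.8 and 29.2 CPM, 5.66-fold lower (5.44 to 5.90). Its level within mesothelial-like clusters, where it was highest in each library, was 833, 730 and 642 CPM.

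Of 8 genes of export and systemic control 5 passed the minimum, with 1 higher and 3 lower, too few to set apart from the 18.1% and 43.5% of all genes. Heph, hephaestin, a ferroxidase like Cp, was 1.55-fold lower in Ob (1.48 to 1.61) and had 186, 134 and 72.5 CPM in adipocyte-like clusters. Neo1, a co-receptor in the control of hepcidin, was 3.10-fold lower. Of 6 sensors and chaperones 1 was higher and 1 lower: Fbxl5, the iron sensor that degrades IRP2, was at 112, 107 and 194 CPM, a ratio of 1.73 (1.69 to 1.78), and Herc2 was 1.5-fold lower. Aco1, which encodes IRP1, the protein that binds the stem-loops shown above, was at 71.8, 145 and 105 CPM, a ratio of 1.46 that was not called.

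Of 8 genes of mitochondrial iron 3 were higher and 2 lower, and the shares over all genes beside this and the next counts are again 18.1% and 43.5%. The importers Slc25a37 and Slc25a28 differed, the first being 1.70-fold higher and the second 1.68-fold lower in Ob. In Ctrl both were highest in germ cell-like clusters, at 146 CPM in cluster 14 and 182 CPM in cluster 13. Of 8 genes of heme synthesis 0 were higher and 1 lower, Alad with 18.3, 25.5 and 7.87 CPM, 2.33-fold lower (2.12 to 2.55). The highest Ctrl level of Alad was 59.2 CPM, in epididymal epithelium-like cluster 8. Of 9 NRF2 target and antioxidant genes 2 were higher and 2 lower. Prdx1 and Sqstm1 were 2.04-fold and 2.21-fold higher, and Gpx4, which protects lipids from iron-driven oxidation, had 93.0, 33.0 and 68.4 CPM with no call in Ob over Ctrl. Gpx4 was highest in germ cell-like cluster 12 of Ctrl, at 793 CPM. In Ob, Prdx1 and Gpx4 were highest in unnamed cluster 18, at 784 and 1046 CPM.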

How the data were processed

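Nuclei of epididymal fat, pooled from 8 mice, gave 1 library for each stage. The authors ran Cell Ranger, which aligns with STAR; for these, version numbers, build and annotation were not given in the sources used here. The signal columns are the authors' deposited mean counts per cluster, from which whole UMI counts were recovered (100% of values whole within 0.001 counts). The deposited log2 fold changes and adjusted p-values of the authors compare a cluster with the other nuclei of its library and were not used as results. The deposited clusters include those above the mitochondrial limit the study applied later, and whether the study's doublet removal with DoubletFinder came before that clustering is not given.

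Counts were summed per cluster, class and library and divided by all UMIs (CPM). Levels have exact Poisson intervals and ratios conditional exact binomial intervals at the 95% level (Python 3.11.15, scipy 1.17.1). The call needs over 1.5-fold and 50 counts in the pair; the procedure was tested on simulated data. Similarity is Pearson r of log2(CPM + 1) over 46 clusters among genes with 200 counts. The named genes are all 10 members, the 3 genes most like each (1 such gene of Hmox1, and names of genes separated like Fth1, are not reported here), and of the other iron genes the leading ones of each group by counts. Members, lists and names of clusters were chosen with earlier results of these data known. The ribosomal scaling, the exclusion of clusters of high mitochondrial share and the motif and stem-loop searches were added after the data were seen. Alternatives were another scaling, equal cluster weights, a minimum of 10 counts, mitochondrial genes left out of the total, and clusters left out.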

Additional observations from a re-analysis of the deposited data

Results flagged for a closer look

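Cp differed in direction between classes of clusters for Ob over Mid_Ob, with a log2 ratio of -0.99 in macrophage-like clusters and 0.80 in adipocyte-like clusters. All clusters of Ob went the same way within a class except macrophage-like cluster 20, which at 163 CPM lay above the 92.7 CPM of Mid_Ob cluster 4. The difference between the classes was not tested, since each stage has 1 library. Given equal weight for every cluster, the macrophage-like call was lost, and scaled to ribosomal protein UMIs the adipocyte-like value was 0.03.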

How the results depend on the processing

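Of 46 calls of the 10 genes, 26 were kept under every alternative run and 40 were never reversed. Of 188 counts of called genes recomputed under the alternatives, 160 stayed within 1.5 times, 10 were smaller and 18 larger. The cause was not tested for any of those that moved. The share of all genes called under the ribosomal scaling is not given beside its counts, here or for the classes below. In whole libraries, scaling to ribosomal protein UMIs gave for Mid_Ob over Ctrl 0 genes higher and 3 lower (4 and 0 by CPM), for Ob over Mid_Ob 4 lower (1 by CPM), and for Ob over Ctrl 3 higher and 5 lower (5 and 0 by CPM). Without testis and epididymis clusters, Mid_Ob over Ctrl gave 0 higher and 2 lower, Ob over Mid_Ob 0 lower and Ob over Ctrl 1 lower, and of the other iron genes 12 in place of 19 were higher in Ob over Ctrl. Without unnamed clusters 1 gene was lower in Mid_Ob over Ctrl and 1 in Ob over Ctrl. With equal weight for every cluster 2 were lower in Ob over Mid_Ob and 1 in Ob over Ctrl. Dividing by the median gene ratio gave 29 of the other iron genes higher and 11 lower in Ob over Ctrl, in place of 19 and 17.

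In macrophage-like clusters the ribosomal scaling gave 4 genes lower in Mid_Ob over Ctrl (2 by CPM), 2 higher in Ob over Mid_Ob (4 by CPM), and 1 higher and 6 lower in Ob over Ctrl (4 and 2 by CPM), with log2 ratios that turned to -0.01 (Slc11a1, Ob over Mid_Ob), -0.06 (Slc11a1, Ob over Ctrl) and -0.25 (Trf, Ob over Ctrl). Leaving out 1 cluster at a time gave 1 to 2 higher and 1 to 2 lower in Mid_Ob over Ctrl, 3 to 4 higher and 3 lower in Ob over Mid_Ob, and 2 to 4 higher and 2 lower in Ob over Ctrl. Leaving out Ctrl cluster 9 ended the call of Cp in Mid_Ob over Ctrl and those of Slc11a1 and Trf in Ob over Ctrl, leaving out Ctrl cluster 11 added Slc11a1 as higher in Mid_Ob over Ctrl (log2 0.71), the call of Slc11a1 in Ob over Mid_Ob was lost without Ob cluster 1 or 2, and those of Trf in Ob over Ctrl and Ob over Mid_Ob without Ob cluster 3 or 11. In adipocyte-like clusters the ribosomal scaling gave 2 lower in Ob over Mid_Ob and 4 lower in Ob over Ctrl, in place of 0 and 1, and turned Trf, Ob over Mid_Ob, to -0.17. Equal weights gave 1 lower in Ob over Mid_Ob, and dividing by the median gene ratio gave 2 higher in Mid_Ob over Ctrl, in place of 1. Leaving out 1 cluster gave 5 higher and 0 to 1 lower in Ob over Mid_Ob, and 4 to 6 higher and 1 lower in Ob over Ctrl. The log2 ratio of Slc11a1 then ranged from -0.28, without Ob cluster 5, to 2.43 in Ob over Mid_Ob, and from -0.11, again without Ob cluster 5, to 2.60 in Ob over Ctrl.

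No paired analysis was possible because each stage has 1 library. Depth limits Slc40a1 and Hmox1, with 378 to 654 and 410 to 2743 counts per library. Since 8 mice were pooled per library, the spread between mice is unknown.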
